A study of Mus musculus with 6 samples.

Results

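The 10 genes described here encode the mouse heat shock factors HSF1 and HSF2 and 8 chaperones or co-chaperones of the cytosol. They were chosen by symbol from a table of 22219 genes, as the factors and the inducible and constitutive cytosolic chaperones Hsf1, Hsf2, Hspa1a, Hspa1b, Hspa8, Hspb1, Hsph1, Hsp90aa1, Dnajb1 and Bag3. All 10 had a row, and all 10 passed the filter on low values, with at least 174 recovered reads in every library. RNA came from whole testes of mice at day 10. The cKO group (n = 3 libraries) had Eif5 deleted in germ cells by combining floxed Eif5 alleles with a Stra8-Cre transgene, whose promoter is active in spermatogonia that enter differentiation. The control group (n = 3 libraries) carries no stated genotype. Whether the controls carry the Cre or floxed alleles is not stated, and the Cre, the alleles and the deletion cannot be told apart. Somatic cells of the cKO testis keep the gene. In whole organs, fewer cells of a type and less RNA per cell cannot be told apart.

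HSF1 is held inactive by chaperones in unstressed cells. When unfolded proteins accumulate in the cytosol it forms trimers and binds heat shock elements, inverted repeats of the letters GAA, in the promoters of chaperone genes. HSPA1A and HSPA1B are the stress-inducible HSP70 proteins, HSPA8 is their constitutive relative, and J-domain proteins such as DNAJB1 and exchange factors such as HSPH1 and BAG3 drive and reset the HSP70 cycle. Male germ cells are sensitive to heat and use chaperones of their own, and HSF2 is known for its part in their development in mice.

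Heat shock element letters were looked for in the 250 bases before each transcription start, and the windows of 4 genes are printed because they hold them. They include both genes that rose in cKO, the near copy of one of these, and Hsph1, which holds the other motif and was not called. Capitals mark matches to GAANNTTC or TTCNNGAA, each 2 facing GAA units, on the strand shown (both motifs read the same on the other strand). The sequences run 5′ to 3′ and are those of RefSeq on GRCm38.p6, at chr17:34972157-34972406 (minus strand) for Hspa1a, chr17:34959239-34959488 (minus strand) for Hspa1b, chr5:135887669-135887918 (plus strand) for Hspb1 and chr5:149636337-149636586 (minus strand) for the more upstream start of Hsph1.
Hspa1a: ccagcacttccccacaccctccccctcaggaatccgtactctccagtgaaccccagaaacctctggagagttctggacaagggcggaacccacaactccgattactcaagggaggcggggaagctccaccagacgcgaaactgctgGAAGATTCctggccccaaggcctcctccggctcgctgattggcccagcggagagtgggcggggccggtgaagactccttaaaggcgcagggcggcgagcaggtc
Hspa1b: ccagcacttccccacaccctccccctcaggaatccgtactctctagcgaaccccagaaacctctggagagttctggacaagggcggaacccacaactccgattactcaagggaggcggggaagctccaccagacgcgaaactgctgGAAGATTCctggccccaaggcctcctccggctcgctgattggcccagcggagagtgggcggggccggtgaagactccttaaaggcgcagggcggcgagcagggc
Hspb1: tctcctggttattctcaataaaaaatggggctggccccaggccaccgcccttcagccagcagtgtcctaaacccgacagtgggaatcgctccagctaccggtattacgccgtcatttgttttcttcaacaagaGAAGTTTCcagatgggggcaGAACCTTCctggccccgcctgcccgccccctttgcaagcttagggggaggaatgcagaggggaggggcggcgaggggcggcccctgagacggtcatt
Hsph1: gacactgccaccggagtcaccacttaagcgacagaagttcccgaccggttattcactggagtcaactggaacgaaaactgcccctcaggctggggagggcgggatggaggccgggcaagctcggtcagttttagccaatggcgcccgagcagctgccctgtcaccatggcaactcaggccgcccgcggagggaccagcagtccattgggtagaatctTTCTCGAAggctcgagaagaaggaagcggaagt

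The Hspa1a and Hspa1b windows differed at 3 of 250 bases, and both had 1 match, from 104 to 97 bases before the start. Hspb1 had 2 matches, from 117 to 110 and from 97 to 90 bases before its start. Hsph1 had 1 match, from 33 to 26 bases before the start shown. RefSeq windows were at hand for 7 of the 10 genes, those 4 and Bag3, Dnajb1 and Hsf2. Of 32851 promoter windows searched, 12.84% held either motif and 1.46% held 2 or more matches. The longer motif GAANNTTCNNGAA, searched on both strands, was in 0.466% of windows and in none of those of the members. The CCAAT letters, also searched on both strands, stood in the Hspa1a, Hspa1b, Hsph1, Dnajb1 and Hsf2 windows and in 33.85% of all windows. A match to these letters is a description and not a measured binding site. Hsf1, Hspa8 and Hsp90aa1 are named only.

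Values are read counts divided by 1 size factor per library, called normalised read counts. The libraries held 32555443 to 48409550 recovered reads, and the 10 genes took 0.128% to 0.154% of these in cKO and 0.129% to 0.170% in control. Eif5 was lower in cKO, at 8548, 8982 and 9574 normalised read counts, against 11965, 10551 and 11187 in control (log2 fold change -0.31, limma adjusted p = 0.0240), and Eif5 was not called without cKO replicate 1 (adjusted p = 0.133) or 2 (adjusted p = 0.0888). Cell type markers shifted with the genotype. Markers are counted as higher or lower where limma called them at an adjusted p under 0.05. Of all 17570 genes tested 9.63% were called higher and 10.4% lower. All 11 markers of meiotic prophase were lower in cKO, with summed levels of 8948 to 10858 normalised read counts in cKO and 24119 to 27657 in control. Of 7 markers of differentiating spermatogonia 6 were lower. Of 12 Sertoli cell markers 6 were higher and 1 lower, with sums of 484776 to 552502 in cKO and 307369 to 439685 in control, and of 7 Leydig cell markers 6 were higher, with sums of 21920.5 to 26088 in cKO and 14228 to 19177 in control. Of 8 macrophage markers 6 were higher, with sums of 8165 to 9348 in cKO and 6226 to 7933 in control. Of 11 markers of undifferentiated spermatogonia 5 were higher, with sums of 12639 to 13402 in cKO and 10957 to 12415 in control. Of 4 erythroid markers 2 were higher, with sums of 4456 to 11226 in cKO and 3409 to 4346 in control. Of 6 peritubular myoid markers 2 were lower and 0 higher, with sums of 24850 to 26318 in cKO and 27040 to 28660 in control. Of 6 endothelial markers 1 was higher and 1 lower, with sums of 8661 to 9461 in cKO and 7171 to 8811 in control. Of 6 skeletal muscle markers 4 were tested and 0 called, with sums over the 6 of 188 to 203 in cKO and 231 to 333 in control.

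Of the 10 heat shock genes 2, Hspb1 and Hspa1a, were higher in cKO, each by about 1.5-fold, and 0 were lower (limma, adjusted p under 0.05 over all 17570 genes tested). Of all genes tested 20.0% were called, 9.63% higher and 10.4% lower, so the 2 of 10 called is the share found among all genes. The median log2 fold change of the 10 genes was 0.06, against 0.01 for all genes. At an unadjusted limma p under 0.05 there were 3 of the 10, the third being Hsp90aa1 with a negative log2 fold change, against 33.4% of all genes. The other 8 genes, including both heat shock factors, had log2 fold changes from -0.29 to 0.25. By edgeR on the recovered reads 2 of 10 genes were called, against 19.5% of all genes, and by DESeq2 likewise 2 of 10, against 25.5% of all genes with an adjusted p.

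**Figure D1:**
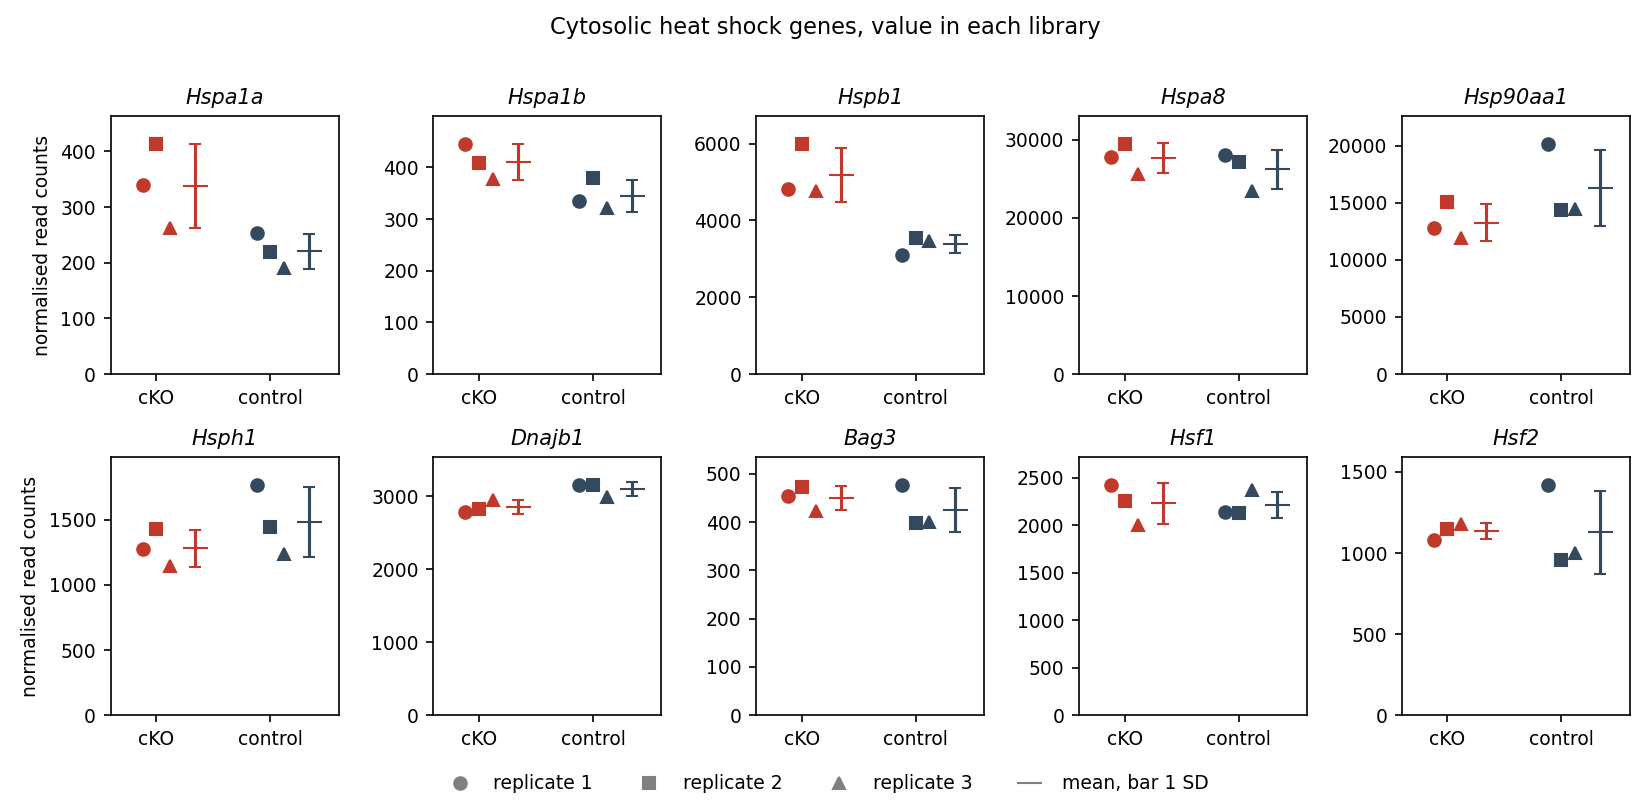
Normalised read counts of the 10 genes (vertical axes, from 0) in each cKO and control library (horizontal axes), with the mean and a bar of 1 SD beside the points (n = 3 per group). The cKO points of Hspa1a and Hspb1 all lie above the control points, those of Dnajb1 all lie below, and the groups overlap for the other 7 genes.

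Hspb1 encodes the small heat shock protein HSP25 of mice, which holds unfolded proteins in solution and binds to actin filaments. It had 4814, 5993 and 4757 normalised read counts in cKO, against 3111, 3551 and 3465 in control. Every cKO library was above every control library. The means were 5188 ± 698 in cKO and 3376 ± 233 in control (SD, n = 3 each), a fold of 1.53 (log2 fold change 0.61, SE 0.102, limma adjusted p = 0.000274). Its log2 fold change stood at the 96.5th percentile of all genes. The call held without any 1 of the 6 libraries, with log2 fold changes of 0.51 to 0.67. When libraries were scaled so that 12 Sertoli cell markers summed alike (the Sertoli scaling), its log2 fold change was 0.18 (adjusted p = 0.490) and the call ended. That scaling moved the median of all genes to -0.42, and relative to this median Hspb1 stood at 0.60. In cKO the summed markers of Sertoli cells, Leydig cells, macrophages, undifferentiated spermatogonia and erythroid cells were higher, as were Hspb1 and Hspa1a. Those of peritubular myoid cells, skeletal muscle, differentiating spermatogonia and meiotic prophase were lower. Only the group differences were set side by side, not single libraries, and the part of these shifts in the results was not tested. Of the 50-base windows of its main transcript 58.9% also occur in a pseudogene, Hsp25-ps1, which had no row in the table, and how the authors counted such reads is not given in the sources used here.

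Hspa1a, an inducible HSP70 gene, was counted 340, 414 and 262 in cKO, against 253, 220 and 190 in control, in normalised read counts. The groups did not overlap, though the lowest cKO library was close to the highest control library. The means were 338 ± 75.9 in cKO and 221 ± 31.6 in control (SD, n = 3 each), a fold of 1.51 (log2 fold change 0.60, SE 0.178, limma adjusted p = 0.0225). The call rested on 3 of the libraries: the log2 fold change was 0.58 without cKO replicate 1 (adjusted p = 0.0642), 0.44 without cKO replicate 2 (adjusted p = 0.146) and 0.49 without control replicate 3 (adjusted p = 0.0778). It also ended with library totals as the scaling (0.51, adjusted p = 0.0521) and under the Sertoli scaling (0.17, adjusted p = 0.616, or 0.59 relative to the median of all genes).

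Hspa1b, the neighbouring copy, was counted 446, 408 and 377 in cKO, against 336, 380 and 321 in control. One control library lay above the lowest cKO library. Its log2 fold change of 0.25 (95% interval -0.04 to 0.54) was not called (limma adjusted p = 0.227). The main transcripts of the pair share long stretches: 58.8% of the 50-base windows of Hspa1a occur in Hspa1b and 62.3% of those of Hspa1b in Hspa1a. The split of reads between them is therefore uncertain, and the pair was also summed. Together they had 785, 822 and 639 normalised read counts in cKO, against 589, 600 and 510 in control. The sum was higher in every cKO library than in any control (log2 fold change 0.40, 95% interval 0.13 to 0.66, limma adjusted p = 0.0324). The call of the sum ended without cKO replicate 1 or 2 or control replicate 3 (adjusted p = 0.119, 0.159 and 0.103) and with library totals (0.31, adjusted p = 0.117), and under the Sertoli scaling the sum read -0.04 (adjusted p = 0.916), or 0.39 relative to the median of all genes. Hspa1a made up 43.3%, 50.3% and 41.0% of the pair in cKO and 43.0%, 36.7% and 37.2% in control. The Wilson 95% intervals, for counting error only, were 39.6% to 47.0%, 47.3% to 53.4% and 36.9% to 45.2% in cKO. In control they were 39.6% to 46.4%, 32.7% to 40.8% and 32.9% to 41.6%. Most low recovered counts were even, so both mates of a fragment may have been counted, and these intervals would then be too narrow. The 5.93 point difference in mean share was not called (exact permutation test, 2-sided, p = 0.2, n = 3 each, where the smallest possible p is 0.1).

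Hspa8, the constitutive HSC70 that folds new proteins and uncoats clathrin vesicles, had 27862, 29487 and 25648 normalised read counts in cKO, against 28125, 27175 and 23401 in control. The groups overlapped widely. Its log2 fold change of 0.08 (95% interval -0.15 to 0.31) was not called (limma adjusted p = 0.669). Of its 50-base windows 73.2% occur in transcripts of other genes, most often the pseudogene Gm15459, which had no row.

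Hsp90aa1, the inducible HSP90 gene, whose loss in mice stops male germ cells in meiosis, had 12775, 15087 and 11896 normalised read counts in cKO, against 20141, 14320 and 14420 in control. Control replicate 1 stood well above the other 5 libraries, which overlapped. The log2 fold change was -0.29 (95% interval -0.55 to -0.02) and was not called (limma adjusted p = 0.113). Without control replicate 1 it was -0.12 (adjusted p = 0.425). It was called lower with library totals (-0.37, adjusted p = 0.0438) and under the Sertoli scaling (-0.72, adjusted p = 0.00170, or -0.30 relative to the median of all genes). Of its 50-base windows 58.5% occur in other genes, mostly in the pseudogene Gm12346, which was counted separately at 48.2 ± 13.9 in cKO and 47.9 ± 14.2 in control (SD, n = 3 each).

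Hsph1 encodes an HSP110 protein that exchanges nucleotide on HSP70. It had 1274, 1425 and 1141 normalised read counts in cKO, against 1767, 1441 and 1236 in control. The highest value was again in control replicate 1. Its log2 fold change was -0.20 (95% interval -0.46 to 0.05, limma adjusted p = 0.266), or -0.07 without control replicate 1 (adjusted p = 0.748), and under the Sertoli scaling it was called lower (-0.63, adjusted p = 0.0278, or -0.21 relative to the median of all genes).

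Dnajb1, which encodes HSP40, the J-domain partner that hands clients to HSP70, had 2779, 2829 and 2956 normalised read counts in cKO, against 3155, 3154 and 2990 in control. All cKO libraries were below all controls, by a small margin. Groups did not overlap for 36.7% of all genes, 18.3% with cKO above and 18.4% with cKO below, and for 3 of these 10 genes. The log2 fold change was -0.12 (95% interval -0.30 to 0.07) and was not called (limma adjusted p = 0.376). Under the Sertoli scaling it was called lower (-0.55, adjusted p = 0.0354, or -0.13 relative to the median of all genes).

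Bag3 encodes a co-chaperone that links HSP70 to small heat shock proteins and to autophagy. It was counted 455, 472 and 424 in cKO, against 477, 398 and 400 in control. The highest value was a control, and the groups overlapped. Its log2 fold change of 0.09 (95% interval -0.19 to 0.36) was not called (limma adjusted p = 0.699).

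The transcripts of both heat shock factors were close in level between the groups. Hsf1 had 2423, 2259 and 2003 normalised read counts in cKO, against 2134, 2133 and 2370 in control (log2 fold change 0.01, 95% interval -0.20 to 0.21, limma adjusted p = 0.968). Its groups overlapped. Hsf2 had 1080, 1147 and 1180 in cKO, against 1419, 959 and 1003 in control (log2 fold change 0.03, 95% interval -0.23 to 0.30, limma adjusted p = 0.889). Control replicate 1 was the highest of the 6 libraries and the other controls the lowest. Without it the Hsf2 log2 fold change was 0.21 (adjusted p = 0.191). HSF1 is controlled mainly as a protein, which these RNA values do not measure.

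**Figure D2:**
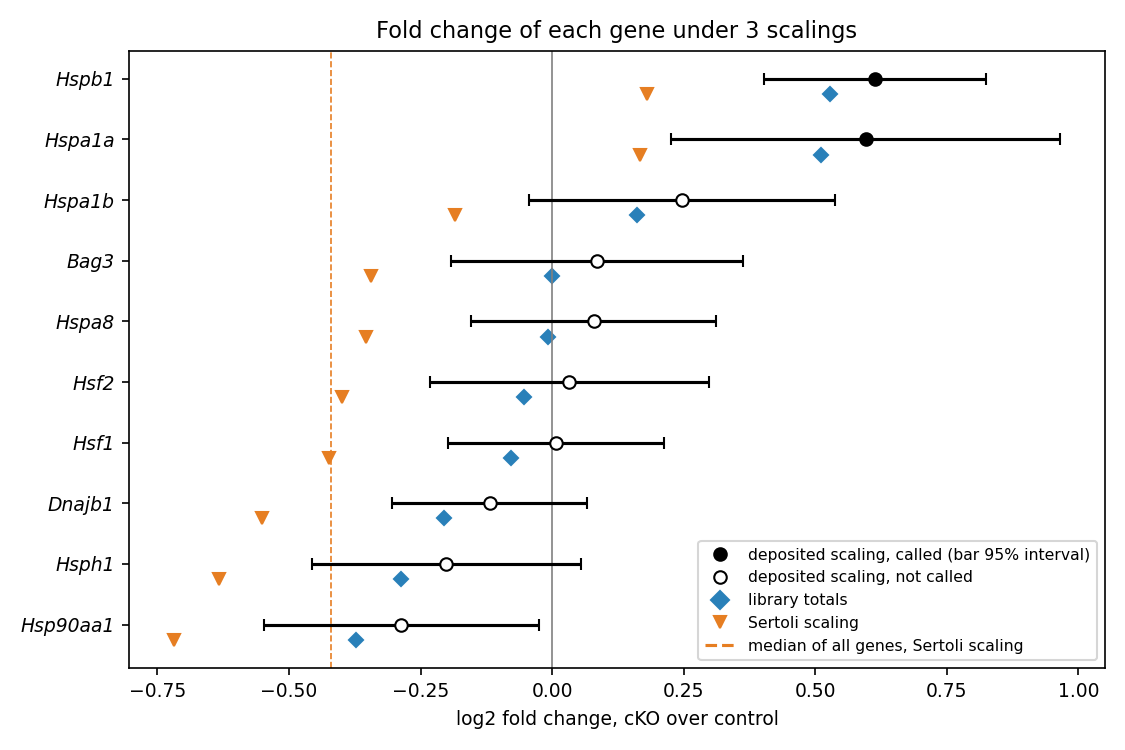
Log2 fold change, cKO over control (horizontal axis), of each gene (vertical axis) with the deposited scaling (circles, filled where called, bars the 95% interval), with library totals (diamonds) and scaled to the Sertoli cell markers (triangles). Hspb1 at 0.61 and Hspa1a at 0.60 are the called genes. The dashed line is the median of all genes under the Sertoli scaling, -0.42.

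The libraries varied in a shared way that did not follow the genotype for several genes. Relative to its group's mean of log2 values, control replicate 1 was higher by 0.32 for Hsp90aa1, 0.35 for Hsf2, 0.27 for Hsph1, 0.20 for Hspa1a and 0.17 for Bag3. The same library stood at 0.10 for Hspa8 and 0.03 for Dnajb1. It was below its group's mean for Hspb1 (-0.12), Hsf1 (-0.05) and Hspa1b (-0.04). In cKO, replicate 2 was the highest for Hspa1a (0.31), Hspb1 (0.22), Hsp90aa1 (0.19), Hsph1 (0.16), Hspa8 (0.09) and Bag3 (0.07), and replicate 3 the lowest for those 6 genes. The other 4 genes did not follow this order.

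The genes whose within-group pattern over the 6 libraries was most like that of the summed Hspa1a and Hspa1b were Phgdh (Pearson r = 0.9999), Rfc2 (0.999), Ankrd6 (0.997), Midn (0.997) and Tubgcp2 (0.997), out of 12953 genes with a mean of at least 100 normalised read counts. The 5 were the highest of that many correlations over 6 libraries, and none is on a chaperone list used here. Of these Rfc2, a subunit of the clamp loader of DNA replication, was lower in cKO (log2 fold change -0.43, limma adjusted p = 0.00758), and the other 4 were not called.

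Levels of different genes are compared per kilobase of the main GENCODE M21 transcript. Hspa8 was the highest, at 11556 ± 805 normalised read counts per kilobase in cKO and 10958 ± 1044 in control (SD, n = 3 each). Hspb1 came next, at 5745 ± 773 per kilobase in cKO and 3738 ± 259 in control, and its range over the 6 libraries overlapped that of Hsp90aa1, at 4039 ± 502 in cKO and 4966 ± 1016 in control. Among the controls Hsp90aa1 had the higher mean of the pair and among the cKO libraries Hspb1 had. Hsf1 (1069 ± 102 in cKO and 1062 ± 65.7 in control) and Dnajb1 (953 ± 30.5 in cKO and 1035 ± 31.8 in control) overlapped each other, as did Hsf2 (436 ± 19.5 in cKO and 433 ± 97.5 in control) and Hsph1 (337 ± 37.4 in cKO and 390 ± 70.4 in control). Bag3, Hspa1b and Hspa1a were the lowest, at 176 ± 9.51, 146 ± 12.3 and 114 ± 25.6 per kilobase in cKO and 166 ± 17.5, 123 ± 11.01 and 74.4 ± 10.7 in control, and each overlapped its neighbour in this order. The mean per-kilobase level of Hspa8 was 119 times that of Hspa1a. For comparison, the constitutive HSP90 gene Hsp90ab1 stood at 22977 ± 1395 per kilobase in cKO and 22195 ± 2405 in control.

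**Figure D3:**
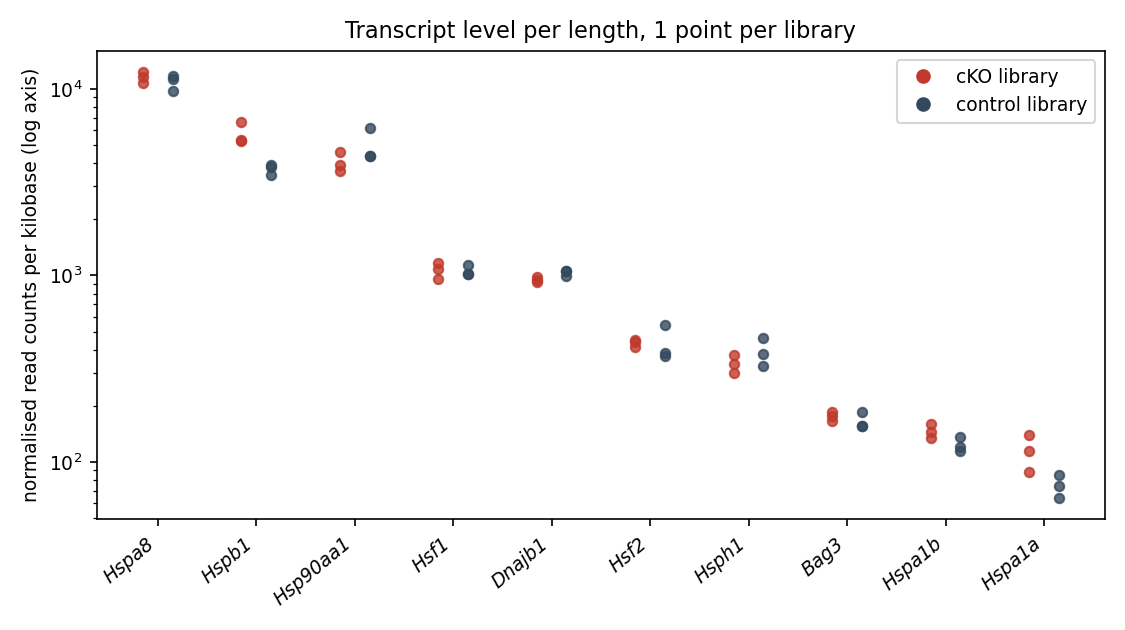
Normalised read counts per kilobase of transcript (vertical log axis) of the 10 genes (horizontal axis, ordered by mean), 1 point for each cKO library and, to its right, each control library. As counted, Hspa8 has the highest mean and Hspa1a the lowest in each group, with the split of reads between Hspa1a and Hspa1b uncertain. In Hspb1 all cKO points lie above all control points.

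The other members of the heat shock pathway were read from 12 further lists, chosen with earlier results of these data known. Among 5 tested genes of other heat shock factors and their partners 2 were lower and 0 higher (median log2 fold change -0.89). Of all genes 10.4% were lower and 9.63% higher. Hsf2bp, which encodes a partner of HSF2 and BRCA2 needed for meiotic recombination in mice, had 297, 332 and 316 normalised read counts in cKO, against 616, 602 and 541 in control (log2 fold change -0.89, SE 0.131, limma adjusted p = 7.97e-05). It was called in every alternative. Hsf4, a factor known from the lens, was counted 30.4, 19.3 and 4.85 in cKO, against 40.7, 50.1 and 50.2 in control (log2 fold change -1.54, limma adjusted p = 0.0259). It was not called by edgeR (adjusted p = 0.0509), nor by limma when cKO replicate 3 was left out (-0.89, adjusted p = 0.130) or control replicate 1, 2 or 3 (adjusted p = 0.0517, 0.0792 and 0.0705). Hsf3 was near the limit of detection, at 0, 3.21 and 7.27 in cKO, against 10.4, 13.1 and 28.3 in control, and was not called by limma (adjusted p = 0.0528). It was called lower by edgeR (adjusted p = 0.0405), with no filter (adjusted p = 0.0345), with library totals (adjusted p = 0.0457), under the Sertoli scaling (adjusted p = 0.0142) and when cKO replicate 3 was left out (adjusted p = 0.0358). Limma also called Hsf3 lower with the replicate number as a block (adjusted p = 0.0461) and under the Sertoli scaling without the marker Clu (adjusted p = 0.00841). Limma did not call it with a pseudocount of 0.5 or 8 (adjusted p = 0.0613 and 0.0568) or with TMM scaling (adjusted p = 0.0530). Nor was it called without cKO replicate 1 or 2 or control replicate 1, 2 or 3 (limma adjusted p = 0.0753 to 0.216), and DESeq2 gave it no adjusted p. Hsf5, another factor of male germ cells, was not called (-0.21, limma adjusted p = 0.586).

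Among 7 other cytosolic HSP70 and HSP110 genes 2 were lower and 0 higher (median -0.17), against 10.4% lower and 9.63% higher among all genes. Both lower genes are known for high levels in mouse male germ cells. Hspa4l had 1871, 1908 and 1882 normalised read counts in cKO, against 2711, 2430 and 2174 in control (log2 fold change -0.36, limma adjusted p = 0.0126), and its call ended without cKO replicate 1 (adjusted p = 0.0508). Hspa2, the HSP70 of meiotic and later germ cells, had 639, 662 and 519 in cKO, against 954, 712 and 758 in control (log2 fold change -0.41, limma adjusted p = 0.0348). Its call ended without cKO replicate 1 or 3 or control replicate 1 (adjusted p = 0.0541, 0.175 and 0.155). In both genes all cKO libraries were below all controls, in the direction of the meiotic markers, and the part of the lower germ cell markers in this was not tested.

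Among 21 tested genes of cytosolic J-domain proteins 6 were lower and 2 higher (median -0.06), against 10.4% lower and 9.63% higher among all genes. Those whose calls held without any 1 library were Dnajc2 (log2 fold change -0.46, limma adjusted p = 0.00191), whose product assists folding at the ribosome, Dnajc21 (-0.47, limma adjusted p = 0.00433), a ribosome biogenesis factor, and Dnajc9 (-0.43, limma adjusted p = 0.00492), a histone chaperone. The others lower were Dnajc17 (-0.62), Dnajb5 (-0.41) and Dnajc24 (-0.34), a gene of diphthamide synthesis, and those higher were Dnaja4 (0.54) and Dnajc5 (0.26), a chaperone of synaptic vesicles. The 5 calls ended without at least 1 library: Dnajc17 without cKO replicate 1 (adjusted p = 0.0572) or control replicate 2 (adjusted p = 0.0552), and Dnaja4 without cKO replicate 2 or 3 or control replicate 1 or 3 (adjusted p = 0.0537, 0.0942, 0.0575 and 0.0898). That of Dnajb5 ended without any library other than control replicate 3 (adjusted p = 0.101 to 0.143), that of Dnajc5 without any other than control replicate 1 (adjusted p = 0.0512 to 0.172) and that of Dnajc24 without any 1 library (adjusted p = 0.0618 to 0.152). The Dnajc5 call also ended by edgeR (adjusted p = 0.0586), with no filter (adjusted p = 0.0578) and with library totals (0.17, adjusted p = 0.224), and that of Dnaja4 with library totals (adjusted p = 0.0570). With no filter Dnajb5 and Dnajc24 were not called (adjusted p = 0.0635 and 0.0557), nor was Dnajb5 with a pseudocount of 8 (adjusted p = 0.0532). With the replicate number as a block limma did not call Dnajc5, Dnajb5 or Dnajc24 (adjusted p = 0.0721, 0.0585 and 0.0561). The Sertoli scaling left 0 J-domain genes called higher and 9 called lower, with Dnajc5 at -0.17. Under that scaling 22 of all 17570 genes tested were called higher and 5006 lower.

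In the HSP90 co-chaperone list limma called 1 of 23 tested genes higher and 0 lower (median -0.07). Of all genes limma called 9.63% higher and 10.4% lower. An unadjusted limma p under 0.05 was found for 3 of the 23, against 33.4% of all genes. The number called lower was 1 by edgeR, 2 by DESeq2, 1 with TMM scaling, 2 with library totals, 2 without control replicate 3 and 12 under the Sertoli scaling. Over all genes the numbers called lower were, in the same order, 1857, 2024, 1849, 2495, 1777 and 5006, against 1829 by limma with the deposited scaling. The gene called higher was Sugt1, an HSP90 partner at kinetochores and in ubiquitin ligases (log2 fold change 0.35, limma adjusted p = 0.00999), which was not called without cKO replicate 2 (adjusted p = 0.0833) or with library totals (adjusted p = 0.0683) and read -0.08 under the Sertoli scaling. Hsp90ab1 was not called (0.05, limma adjusted p = 0.816), nor was Fkbp4, an immunophilin partner of steroid receptors (-0.04, limma adjusted p = 0.833). Of 6 genes of BAG proteins and exchange factors 0 were called by limma, edgeR or DESeq2 (median 0.05). An unadjusted limma p under 0.05 was found for 1, against the same 33.4%. Among 8 tested genes of other small heat shock proteins Hspb8, the partner of BAG3, was higher (0.51, limma adjusted p = 0.0148) and Hspb11, a subunit of ciliary transport, lower (-0.46, limma adjusted p = 0.00824), with a median of 0.25. These were 1 of 8 higher and 1 of 8 lower, against the same 9.63% and 10.4%. Hspb8 had 566, 620 and 453 normalised read counts in cKO, against 365, 419 and 358 in control. Hspb8 was not called without cKO replicate 1 or 2 (adjusted p = 0.0596 and 0.0972) and read 0.08 under the Sertoli scaling. Hspb11 was not called without cKO replicate 2 (adjusted p = 0.0629).

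**Figure D4:**
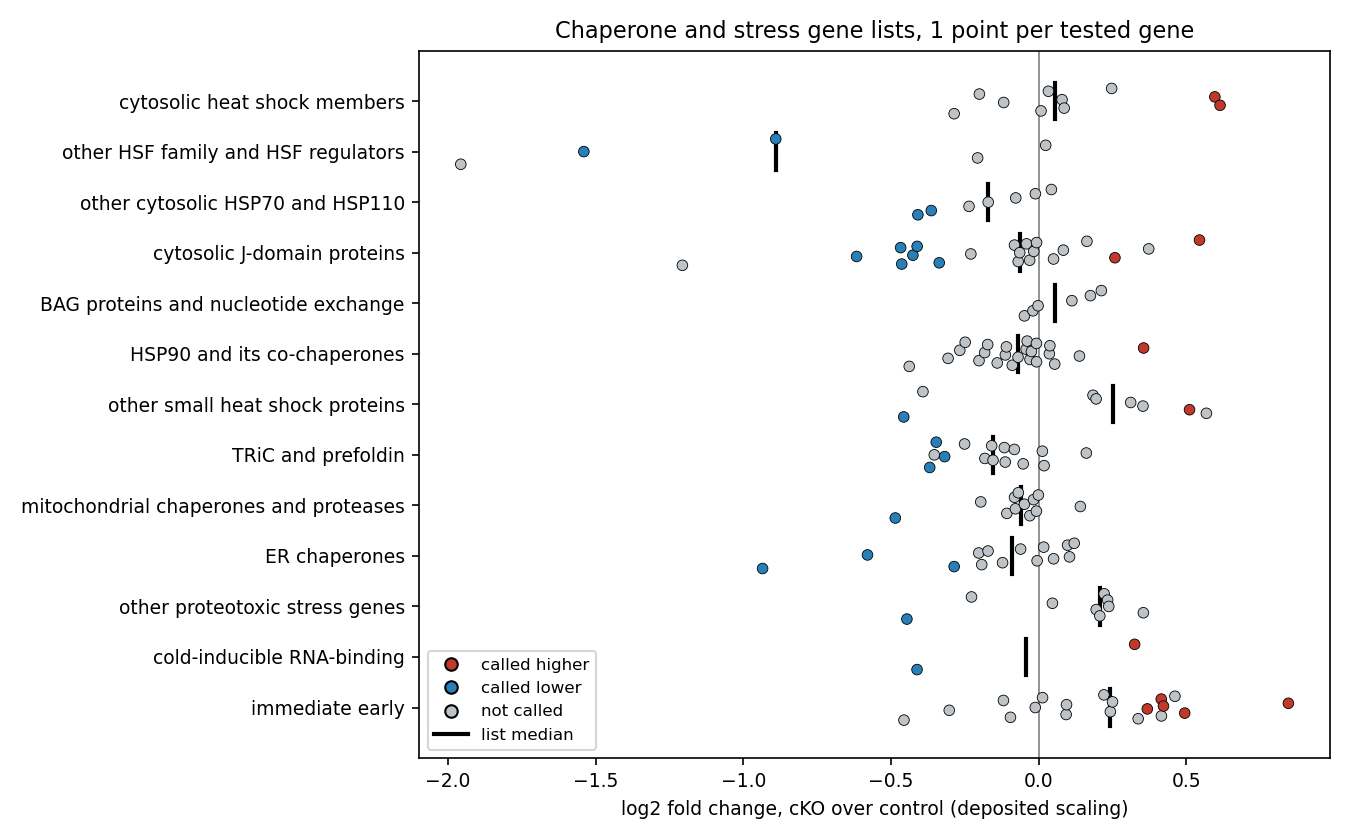
Log2 fold change, cKO over control, with the deposited scaling (horizontal axis), of every tested gene of the 10 heat shock genes and of 12 other lists (vertical axis). Filled colours mark genes called higher or lower, and a bar is the list's median, from -0.89 for the other heat shock factors to 0.25 for the other small heat shock proteins.

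The cytosolic chaperonin and prefoldin list had 3 of 15 genes lower and 0 higher (median -0.15), against 10.4% of all genes lower. They were the chaperonin subunit genes Cct3 (-0.35, limma adjusted p = 0.0236) and Cct7 (-0.32, limma adjusted p = 0.0237) and the prefoldin gene Pfdn4 (-0.37, limma adjusted p = 0.0448), and between 0 and 2 were lower when any 1 library was left out. The mitochondrial list had 1 of 12 genes lower, against the same 10.4%, and 0 higher (median -0.06). The lower gene was the disaggregase gene Clpb (-0.49, limma adjusted p = 0.00100). In the ER chaperone list 3 of 14 were lower, against the same 10.4%, and 0 higher (median -0.09). They were Sdf2l1 (-0.93, limma adjusted p = 7.24e-06), Creld2 (-0.58, limma adjusted p = 0.000890) and Dnajb11 (-0.29, limma adjusted p = 0.0317), of which Dnajb11 was not called without cKO replicate 1, 2 or 3 or control replicate 2 or 3 (adjusted p = 0.0762 to 0.138). Hspa5, the ER member of the HSP70 family, had a log2 fold change of -0.19 (limma adjusted p = 0.264).

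Among 9 other genes of protein stress 0 were called higher by limma or edgeR and 2 by DESeq2 (median 0.21). Of all genes limma called 9.63% higher, and DESeq2 called 25.5% of those with an adjusted p in either direction. An unadjusted limma p under 0.05 was found for 6 of the 9, against 33.4% of all genes. By limma 1, 2 and 1 were called higher without control replicate 1, 2 and 3. Serpinh1, which encodes the collagen chaperone HSP47, was not called (0.35, limma adjusted p = 0.0553). The cold-inducible RNA-binding genes were split. Cirbp was lower in cKO (-0.41, limma adjusted p = 0.00353) and Rbm3 higher (0.32, limma adjusted p = 0.0137), though Rbm3 was not called without cKO replicate 2 or 3 (adjusted p = 0.0847 and 0.0598) or with library totals (adjusted p = 0.0836) and read -0.11 under the Sertoli scaling.

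Immediate early genes, which respond to handling of tissue as well as to signals, had 5 of 19 members higher and 0 lower (median 0.24, or -0.19 under the Sertoli scaling, against -0.42 for all genes), where 9.63% of all genes were higher. They were Egr2 (0.84, limma adjusted p = 0.000389), Jun (0.49, limma adjusted p = 0.00357), Nr4a1 (0.42, limma adjusted p = 0.0392), Jund (0.41, limma adjusted p = 0.0288) and Ier2 (0.37, limma adjusted p = 0.0311). Egr2 and Jun were called without any 1 library, and between 2 and 6 members were called higher when 1 library was left out. Calls ended for Jund without cKO replicate 1 or 2 or control replicate 1 or 3 (adjusted p = 0.0579 to 0.117), for Nr4a1 without cKO replicate 1 or 3 or control replicate 1 or 3 (adjusted p = 0.0859 to 0.205) and by edgeR (adjusted p = 0.0575), and for Ier2 without any library other than control replicate 2 (adjusted p = 0.0560 to 0.106). With library totals 2 members were higher, and the Sertoli scaling gave 0 higher and 2 lower. Of all 17570 genes tested 807 were higher with library totals, and 22 were higher and 5006 lower under the Sertoli scaling. Their part in the values of Hspa1a and Hspb1 was not tested.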

How the data were processed

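RNA from whole mouse testes at day 10 was measured in 6 libraries, 3 cKO and 3 control, grouped by their titles. The submitters' processing notes list StringTie 1.3.1 and RSEM without saying what each did. Of the aligner, genome build, annotation and strand setting the sources used here say nothing. The deposited table is named for raw counts, but in each column 100% of its values were whole multiples of 1 step (tolerance 1e-06), so the authors' values are a normalised signal, reads divided by 1 size factor per library (0.825 to 1.35). Of recovered counts of 1 to 30, 77.2% were even.

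The test was limma 3.58.1 (R 4.3.3) (trend option) on log2(value + 2), cKO against control and 2-sided, with fold changes on this scale, which understates changes of low genes. filterByExpr (minimum count 10) left 17570 genes, and p-values were adjusted by Benjamini-Hochberg over all of them, with calls under 0.05. edgeR 4.0.16 and DESeq2 1.42.0 were run on the recovered reads. The fits were tested on simulated data with a fixed dispersion for every gene and no shift of cell types. That does not measure their error rate on these data. Of 236 listed genes 233 were in the table, Hikeshi under its synonym l7Rn6.

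The members and lists were chosen with earlier results of these data known. All 10 members are named. Of other lists the called genes (at most 8, by size) and up to 2 uncalled genes of high level are named, and Hsf3, Hsf5, Serpinh1, Hspa5 and Gm12346 were chosen after their values were seen. The labels do not state whether each library is a different animal. The p-values then measure only the spread between libraries, which may be technical. One gene of these lists is not reported here.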

Additional observations from a re-analysis of the deposited data

How the results depend on the processing

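Changing the pseudocount, the filter, the scaling to TMM or the tool to edgeR or DESeq2 kept the 2 heat shock genes called higher and 0 lower. With library totals 1 was higher (Hspb1) and 1 lower (Hsp90aa1), and all genes gave 807 higher, against 1692 with the deposited factors. Under the Sertoli scaling 0 members were higher and 3 lower, with 22 genes higher and 5006 lower overall. Without Clu, the marker with the most reads, a setting chosen after seeing the data, 0 members were higher and 7 lower, with 33 genes higher and 9659 lower overall. Leaving out 1 library gave 1 to 2 members higher and 0 lower, with 918 to 1747 genes higher and 1281 to 1777 lower overall. With the replicate block 2 members were higher, and 1535 genes were higher and 1771 lower. Same-numbered libraries did not deviate together (correlations -0.0379, -0.00235 and 0.0551), so the numbers were not taken as pairs.

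With library totals the log2 fold change was -0.0782 for Hsf1, -0.0531 for Hsf2 and -0.00714 for Hspa8. Under the Sertoli scaling it was -0.42 for Hsf1, -0.40 for Hsf2, -0.18 for Hspa1b, -0.35 for Hspa8, -0.35 for Bag3 and -0.0352 for the summed Hspa1a and Hspa1b, and without Clu -0.48, -0.46, -0.24, -0.41, -0.40 and -0.0937 in the same order. Without 1 library Hsf1 ranged from -0.0548 to 0.0823, Hsf2 from -0.0721 to 0.21 and Hspa8 from -0.00132 to 0.13. The shift of the median of all genes, -0.42 and without Clu -0.48, is part of these values, and the cause of the other moves was not tested. The log2 fold change of Hspa1a ranged from 0.11 to 0.77 over 16 alternatives (adjusted p from 0.00735 to 0.663), and that of Hspb1 from 0.12 to 0.67 (adjusted p from 6.45e-07 to 0.490).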
